A study of Danio rerio with 18 samples.

Results

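Cells without GFP were sorted from zebrafish embryos at 3 stages. Their RNA describes development in the cells that the GFP-positive sort, the study's target, left out. These GFP-negative cells were chosen by their label and make up 6 of the 18 libraries. Of the 6, 4 came from embryos at 72 hours post fertilization (hpf), the protruding-mouth stage, from wild-type embryos and from gata5, tbx5 and hand2 genetic backgrounds with 1 library each. A further wild-type library came from the long-pec stage at 48 hpf, and the wild-type library at 24 hpf, the prim-5 stage, is what the later ones were set against. The other 12 libraries hold GFP-positive cells from the same 6 combinations of stage and background, 2 libraries in each. The labels name the gene of each background but not the allele, and they do not say which reporter carries GFP. The series' design text places it in a study of cardiomyocytes. How many embryos were pooled is not stated, and libraries are not said to be separate pools. Every p-value therefore measures a spread between libraries, which may be technical. In the fit of all 18 libraries that spread comes from the 12 GFP-positive libraries alone.

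A negative sort gathers the cells outside the GFP-positive gate, so one such library can hold brain, eye, skin, muscle, cartilage, blood and gut together. Cells of any type that fell inside that gate are missing from it. Levels of pigment cell genes in both sorted populations are given below. Zebrafish embryos at the prim-5 stage still have dividing progenitors in most tissues and are closing their last somites. By the long-pec stage the circulation is established, and by the protruding-mouth stage the jaw cartilages, a layered retina with outer segments, a swimming musculature and the gut organs are in place. A bulk library cannot tell fewer cells of a type apart from less RNA per cell.

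Sequencing gave between 5705157 counts in the wild-type library at 72 hpf and 18863332 counts in the tbx5 library, with 6771770 counts at 24 hpf and 8627731 at 48 hpf. Values below are CPM, the usual depth-normalised read counts, after scaling for composition, and the 4 values at 72 hpf always stand in the order wild type, gata5, tbx5, hand2. The regulators that name the backgrounds were read first as a check of the labels. HAND2, a transcription factor of heart and jaw, had 59.9, 49.6, 38.5 and 0 CPM at 72 hpf and 13.8 CPM at 24 hpf, and the hand2 library alone held no count of it, where 3 counts would be 0.373 CPM. GATA5, a heart and endoderm factor, had 6.95, 18.4, 3.997 and 1.87 CPM at 72 hpf and 8.29 CPM at 24 hpf, highest in the gata5 library. TBX5, a factor of heart and fin, had 25.8, 38.6, 5.17 and 7.84 CPM at 72 hpf and 7.82 CPM at 24 hpf, lowest in the tbx5 library. Neither was absent from its own background. In the heart muscle list 1 of 26 genes rose between 24 and 72 hpf (edgeR adjusted p under 0.05) and 0 fell. Of all genes tested 3.85% passed as higher. The gene that rose was the sodium-calcium exchanger gene SLC8A1 (ENSDARG00000043406), which was not called without the gata5 or the tbx5 library. It averaged 82.9 CPM at 72 hpf in GFP-negative and 24.55 CPM in GFP-positive cells. A second SLC8A1 ID, ENSDARG00000013422, averaged 93.7 CPM in GFP-positive cells at 72 hpf. In GFP-negative cells that ID had 1.56 CPM at 24 hpf and 12.4, 19.7, 7.83 and 0.373 CPM at 72 hpf, and was not called. The list's summed level was 1883, 1470, 2643 and 1768 CPM at 72 hpf and 1752 CPM at 24 hpf, most of it from both IDs of the titin gene TTN. MYL7, the light chain of heart myosin, had 3.48, 6.67, 2.98 and 2.24 CPM at 72 hpf and 0.626 CPM at 24 hpf, whereas the GFP-positive libraries averaged 108 CPM at 72 hpf and 80.0 CPM at 24 hpf.

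Genes were compared with edgeR's quasi-likelihood test, and a gene is said to have risen or fallen when its Benjamini-Hochberg adjusted p was under 0.05. Because 24 and 48 hpf have 1 library each, the fit assumes that they vary as the 4 libraries at 72 hpf do. That spread includes any difference between backgrounds. Both early libraries are wild type, whereas the late ones include the gata5, tbx5 and hand2 backgrounds. A change shared by those backgrounds would therefore be counted as a change with stage. Of 23199 genes tested, 893 rose (3.85%) and 361 fell (1.56%) between 24 and 72 hpf, and 4881 had an unadjusted p under 0.05. The median change of all genes was 0.316 on the log2 scale, and list medians below are to be read against it. Counts of risen and fallen genes in a list are likewise to be read against 3.85% and 1.56%. All 4 libraries at 72 hpf lay above the 24 hpf library for 6729 genes (29%) and below it for 5997 genes (25.9%). At least a 2-fold distance in each of the 4 was found for 3142 genes above (13.5%) and 1286 below (5.54%). All 1254 called genes met that stricter rule. No count at 24 hpf was found for 957 of the 3142 genes and for 327 of the 893. Such genes passed the filter on low counts only through later libraries, and they could not lie below 24 hpf. Of the 361 genes that fell, 3 had no count in any library at 72 hpf. Leaving out the gata5 library cut the calls to 210 higher and 67 lower, whereas leaving out the wild-type library at 72 hpf raised them to 2135 and 709. Without the tbx5 library 470 and 160 were called, and without the hand2 library 596 and 249. Fitting all 18 libraries as 12 groups, GFP-positive cells included, turned the split round, with 421 genes called higher and 527 lower, of which 506 were among the 1254. Of 79 called genes examined one by one, 34 lost their call in that fit and 57 lost it with the wild-type library alone standing for 72 hpf. The cause was not tested.

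**Figure D1:**
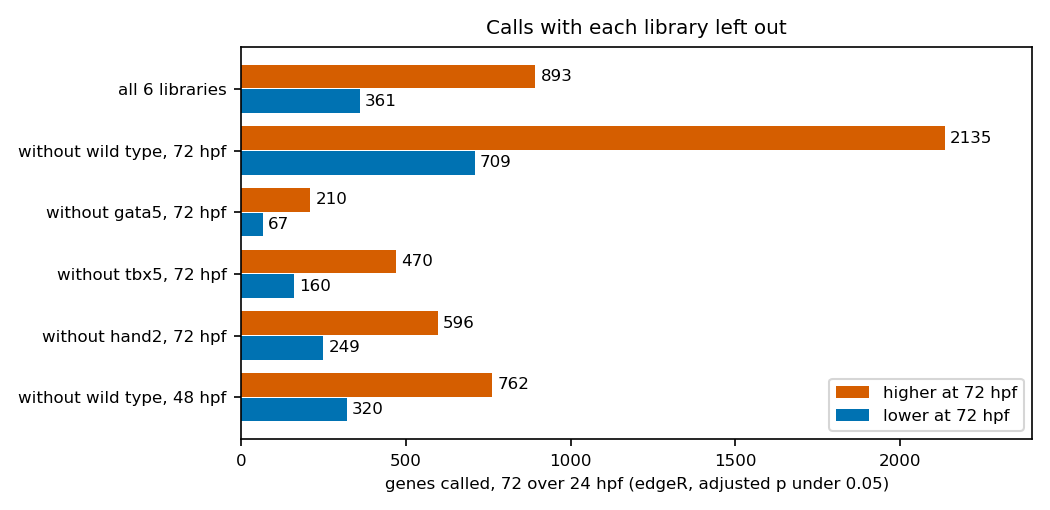
Horizontal bars give the number of genes called higher (orange) and lower (blue) at 72 hpf than at 24 hpf by edgeR at an adjusted p under 0.05, with all 6 GFP-negative libraries and with each library named on the left removed. The counts run between 210 and 2135 for higher genes and between 67 and 709 for lower ones.

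Cartilage genes rose. Of 39 tested genes of the cartilage list, 21 rose and 0 fell, where 3.85% of all genes tested rose, with a median log2 change of 3.34, or 2.95 when genes without a count at 24 hpf are placed at the bound their counts allow. MATN1 (ENSDARG00000030215), the cartilage matrix protein matrilin, had 0 CPM at 24 hpf, 47.2 CPM at 48 hpf and 743, 1553, 733 and 498 CPM at 72 hpf. The 4 late libraries did not overlap the earlier ones, and the gata5 library was the highest. Measured against 3 counts at 24 hpf, MATN1 was at least 1878-fold higher at 72 hpf (edgeR adjusted p = 0.00193). The aggrecan gene acanb, which makes the proteoglycan that swells cartilage, had 0 CPM at 24 hpf, 30.5 CPM at 48 hpf and 105, 160.0, 85.3 and 59.5 CPM at 72 hpf, at least 218-fold higher. For fgfbp2b, an Fgf-binding protein gene, the bound was 289.8-fold. The collagen genes named here already had counts at 24 hpf. COL2A1 under ENSDARG00000069093, the main fibril collagen of cartilage and notochord, had 415 CPM at 24 hpf, 2653 CPM at 48 hpf and 6419, 10344, 6334 and 8299.6 CPM at 72 hpf, a log2 change of 4.24 ± 0.60 (SE; edgeR adjusted p = 0.00513). A second ID with the same symbol, ENSDARG00000011407, changed by 1.83 ± 0.47, and its call was lost when the gata5, tbx5 or hand2 library at 72 hpf was left out (adjusted p = 0.119, 0.056 and 0.0649) or the 48 hpf library (0.0557). COL11A2, a minor fibril collagen, averaged 1866 ± 801 CPM at 72 hpf (SD, n = 4) and 26.4 CPM at 24 hpf. Both other cartilage genes named here rose too. The growth plate protein gene UCMA had 32.8, 48.7, 37.2 and 59.0 CPM at 72 hpf, against 1.095 CPM at 24 hpf, and the chondromodulin gene cnmd had 157, 179, 82.9 and 144 CPM at 72 hpf, against 8.45 CPM at 24 hpf. With the wild-type, gata5, tbx5 and hand2 library at 72 hpf left out in turn, 25, 13, 17 and 19 cartilage genes rose. In the fit of all 18 libraries as 12 groups MATN1, acanb, COL2A1 (both IDs), COL11A2, UCMA and cnmd lost their calls, as did the bone gene COL10A1 (edgeR adjusted p between 0.0947 and 0.618).

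Some connective tissue and bone genes rose as well. In the list of fibroblast-like and perivascular genes 9 of 42 rose and 0 fell (median 1.56), and in the bone list 3 of 27 rose and 0 fell (median 1.52). POSTN (ENSDARG00000043806), a matrix protein of fibrous tissue, had 0 CPM at 24 hpf, 34.6 CPM at 48 hpf and 229, 80.4, 72.8 and 70.31 CPM at 72 hpf, at least 241-fold higher at 72 hpf with the wild-type library highest. A more abundant ID of the same symbol, ENSDARG00000104267, had 618 CPM at 24 hpf and averaged 909 CPM at 72 hpf. Its log2 change was 0.56 ± 0.42, and it was not called. The smooth muscle actin gene acta2 had 0 CPM at 24 hpf, 1.03 CPM at 48 hpf and 165, 61.6, 75.6 and 24.5 CPM at 72 hpf, at least 174-fold higher (edgeR adjusted p = 0.0169, and 0.0531 without the gata5 library). TNMD, a tendon marker, averaged 30.9 ± 11.99 CPM at 72 hpf (SD, n = 4) and had no count at 24 hpf. COL6A3, a collagen of the matrix around cells, had 827, 578, 434 and 283 CPM at 72 hpf and 22.1 CPM at 24 hpf. COL10A1 (ENSDARG00000054753), in zebrafish a collagen of early bone as well as of cartilage, had 1.41 CPM at 24 hpf, 146 CPM at 48 hpf and 457, 431, 97.1 and 339.9 CPM at 72 hpf, a log2 change of 7.86 ± 1.18. The abundant bone and skin collagen gene col1a1a was higher in all 4 late libraries, with 10636, 4680.4, 3530.2 and 4223 CPM at 72 hpf and 1072 CPM at 24 hpf, but did not pass the test (edgeR adjusted p = 0.0698). Leaving out each library at 72 hpf in the same order gave 11, 3, 7 and 8 calls among the fibroblast-like genes and 7, 1, 2 and 2 among the bone genes.

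**Figure D2:**
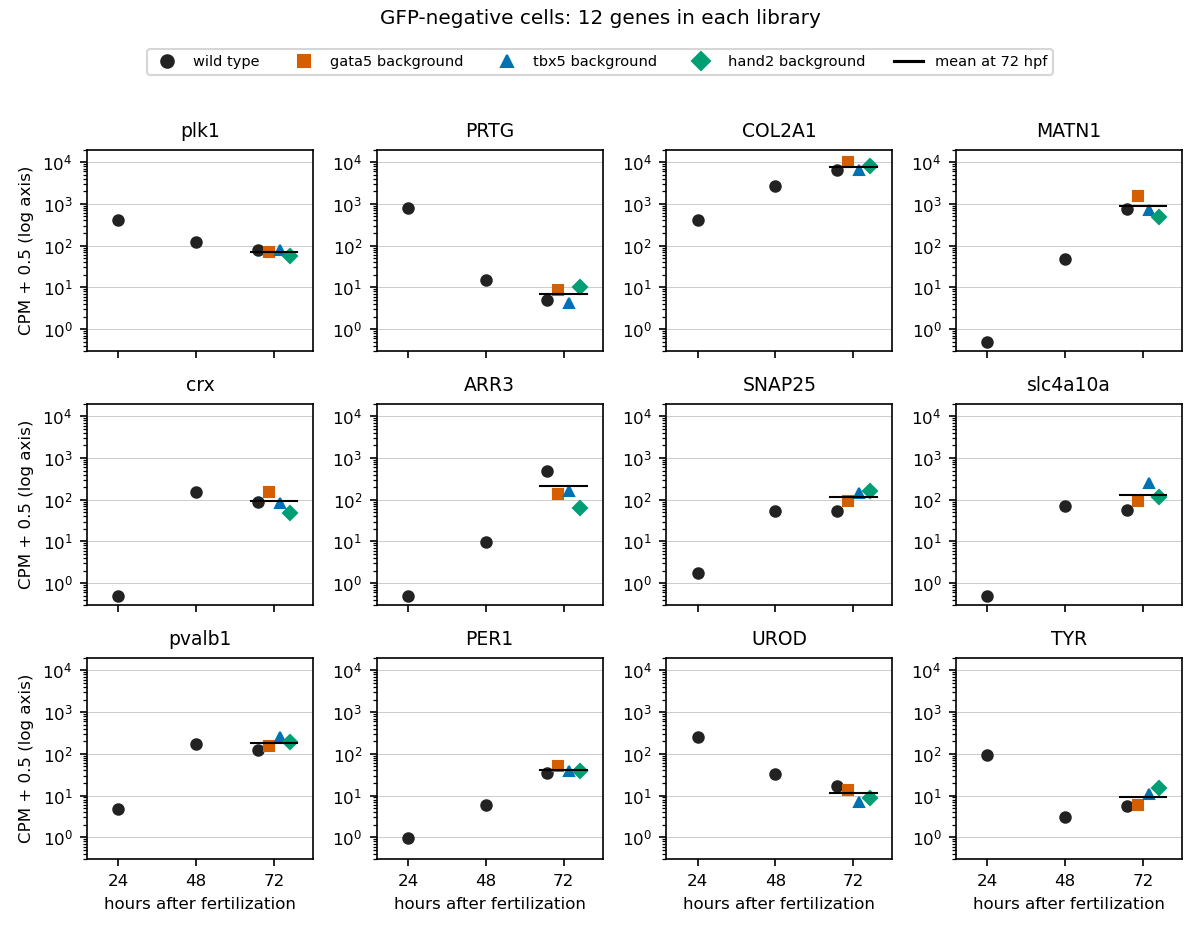
Each panel plots 1 gene in the GFP-negative libraries, with hours after fertilization on the x axis and CPM plus 0.5 on a log y axis. Points are libraries, colours and shapes are backgrounds, and the black line is the mean of the 4 libraries at 72 hpf. MATN1, crx, ARR3 and slc4a10a had no count at 24 hpf and between 48.8 and 1553 CPM at 72 hpf, whereas PRTG had 791 CPM at 24 hpf and at most 9.71 CPM at 72 hpf.

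Photoreceptor genes rose over the same interval. In the list of photoreceptor and phototransduction genes 17 of 58 rose and 0 fell. In all 4 late libraries 40 lay above the 24 hpf library, where 29% of all genes tested did. Of the 58, 32 had no count at all at 24 hpf and could not lie below it. The list's median is therefore 4.03 with those genes at their bounds and 7.35 as fitted. The members differed in where their 48 hpf value lay. The homeobox gene crx, which switches on photoreceptor genes, had 0 CPM at 24 hpf, 154 CPM at 48 hpf and 85.7, 156, 83.4 and 48.8 CPM at 72 hpf, so the 48 hpf value lay within the range of the later ones. NR2E3, a nuclear receptor of rod fate, was past its later level at 48 hpf, with 43.1 CPM at that stage and 9.60, 12.2, 10.18 and 14.4 CPM at 72 hpf. The arrestin gene ARR3 and the opsin gene opn1lw1 had 48 hpf values below the range of the late libraries. The cone arrestin ARR3 (ENSDARG00000056511) had 0 CPM at 24 hpf, 8.93 CPM at 48 hpf and 498, 139.6, 161 and 62.8 CPM at 72 hpf, at least 458-fold higher at 72 hpf. The red cone opsin opn1lw1 had 0 CPM at 24 hpf, 0.229 CPM at 48 hpf and 96.8, 20, 32.7 and 9.96 CPM at 72 hpf, at least 84.9-fold higher. In ARR3 and opn1lw1 the wild-type library was the highest and the hand2 library the lowest at 72 hpf. The neighbouring red opsin gene opn1lw2, a close copy whose reads may be shared with opn1lw1, had 410.4, 90.1, 135 and 31.1 CPM at 72 hpf and no count at 24 hpf, and missed the threshold (edgeR adjusted p = 0.051). ARR3 and opn1lw1 lost their calls without the gata5 library (adjusted p = 0.0517 and 0.0782) and without the tbx5 library (0.0624 and 0.0776).

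VSX1 and POU4F2, genes of other retinal neurons, had 48 hpf values above all 4 late libraries. VSX1, a transcription factor of bipolar cells, had 5.01 CPM at 24 hpf, 251 CPM at 48 hpf and 89.0, 151, 154 and 109 CPM at 72 hpf (log2 change 4.64 ± 0.61 at 72 over 24 hpf, edgeR adjusted p = 0.00388). POU4F2, a factor of retinal ganglion cells, showed the same order of stages, with 3.76 CPM at 24 hpf, 72.3 CPM at 48 hpf and 23.5, 27.5, 60.4 and 22 CPM at 72 hpf, and its call was lost without the gata5 library (0.0948), without the tbx5 library (0.0599) and without the 48 hpf library (0.0575). In the list of other retina genes 4 of 30 rose and 0 fell. With the wild-type, gata5, tbx5 and hand2 library left out in turn, the photoreceptor list had 27, 6, 11 and 26 calls. None of 21 tested lens genes was called by edgeR (2 had an unadjusted p under 0.05, and DESeq2 called 1). NR2E3, opn1lw1 and POU4F2 were not called with the 12 groups (edgeR adjusted p between 0.0987 and 0.29).

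Some synaptic and neuronal genes rose, and the wild-type library at 72 hpf had the lowest list median of the 4. In the neuron list 13 of 56 rose and 0 fell, with a median of 2.69. Of the 56, 44 lay above 24 hpf in all 4 late libraries, where 29% of all genes tested did. In the list of transmitter synthesis, transport and receptor genes 7 of 58 rose and 0 fell (median 3.23). The median log2 ratio of the neuron list to 24 hpf was 1.49 in the wild-type library at 72 hpf, 2.04 in the gata5, 3.30 in the tbx5 and 2.80 in the hand2 library. SNAP25 (ENSDARG00000058117), part of the vesicle fusion machinery, had 1.25 CPM at 24 hpf, 53.4 CPM at 48 hpf and 53.5, 92.5, 148 and 161 CPM at 72 hpf, a log2 change of 6.49 ± 0.90 (edgeR adjusted p = 0.00531). The bicarbonate transporter gene slc4a10a and the synaptotagmin gene syt5b had no count at 24 hpf and were at least 278-fold and 170.3-fold higher at 72 hpf. GRIN1 (ENSDARG00000025728), the obligate NMDA receptor subunit, had 2.504 CPM at 24 hpf, 54.9 CPM at 48 hpf and 34.6, 173, 341 and 209.7 CPM at 72 hpf, and passed narrowly (adjusted p = 0.048). The vesicle genes vamp2 and sypb changed by 3.66 ± 0.81 and 4.12 ± 0.70. ELAVL3, an RNA-binding protein present from the first neurons, was already at 173 CPM at 24 hpf, had 699 CPM at 48 hpf and 268, 292, 429 and 293 CPM at 72 hpf, and was not called (adjusted p = 0.273). Without the gata5 library vamp2 and GRIN1 were not called (0.0901 and 0.0895), nor were they without the hand2 library (0.0598 and 0.0766), and GRIN1 was also lost without the tbx5 library (0.0589). Left out in the usual order, the libraries gave 37, 5, 9 and 7 calls in the neuron list and 27, 0, 3 and 3 in the transmitter list.

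Glial genes moved in both directions. The glutamate transporter gene SLC1A2 (ENSDARG00000102453), which clears transmitter from synapses, averaged 612 ± 236 CPM at 72 hpf (SD, n = 4) and 43.2 CPM at 24 hpf. Its relative SLC1A3 is held by a pair of IDs that moved apart. The ID ENSDARG00000043148 rose, with 327, 144, 345 and 162 CPM at 72 hpf and 12.7 CPM at 24 hpf, and the ID ENSDARG00000104431 fell, with 27.0, 24.2, 14.97 and 26.3 CPM at 72 hpf and 129 CPM at 24 hpf (adjusted p = 0.0512 without the gata5 library). The myelin basic protein gene mbpa had no count at 24 or 48 hpf and 81.9, 24.8, 33.0 and 19.5 CPM at 72 hpf, at least 84.8-fold higher (edgeR adjusted p = 0.011). In the inner ear and lateral line list 5 of 34 rose and 1 fell. OTOF (ENSDARG00000030832), the calcium sensor of hair cell synapses, averaged 24.8 ± 11.9 CPM at 72 hpf and 0.626 CPM at 24 hpf (log2 change 5.28 ± 1.09, adjusted p = 0.0677 without the gata5 library). The gene that fell, oc90, makes an otolith protein and had 0.662, 1.304, 0.213 and 1.62 CPM at 72 hpf and 39.4 CPM at 24 hpf. SNAP25, SLC1A2, OTOF and oc90 lost their calls with the 12 groups (edgeR adjusted p between 0.0696 and 0.699).

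Proliferation genes fell. Of 64 cell cycle and DNA replication genes 40 fell and 0 rose, where 1.56% of all genes tested fell. Of the 64, 62 lay below the 24 hpf library in all 4 late libraries, where 25.9% of all genes tested did. The median log2 change was -1.94. The mitotic kinase gene plk1 had 410.2 CPM at 24 hpf, 122 CPM at 48 hpf and 79.3, 69.1, 79.1 and 57.4 CPM at 72 hpf, a log2 change of -2.53 ± 0.34 (edgeR adjusted p = 0.00449). MCM3, part of the replicative helicase, had 624 CPM at 24 hpf, 152 CPM at 48 hpf and 145, 80.1, 88.5 and 110.4 CPM at 72 hpf, the 48 hpf value being just above those at 72 hpf. The cyclin gene CCNA2 changed by -2.49 ± 0.45 and the proliferation marker mki67 by -1.82 ± 0.40. The sliding clamp gene PCNA had 402, 143, 176 and 389 CPM at 72 hpf and 1056 CPM at 24 hpf, all 4 libraries lower, but it did not pass (adjusted p = 0.0583). The wild-type library at 72 hpf kept the highest levels, with a list median of -1.5 relative to 24 hpf, where the gata5, tbx5 and hand2 libraries had -2.06, -2.10 and -2.10. Of the ribosome biogenesis genes 7 of 33 fell and 0 rose (median -1.39). BOP1, which processes the large subunit RNA, averaged 29.9 ± 8.39 CPM at 72 hpf and 118 CPM at 24 hpf. The cytosolic ribosomal proteins themselves had a median of -0.22 with 0 of 79 called by edgeR (2 had an unadjusted p under 0.05 and DESeq2 called 0). The nuclear respiratory chain genes had a median of 0.22 with 0 of 70 called (3 at unadjusted p under 0.05, 1 by DESeq2). With each library at 72 hpf left out in turn, 55, 5, 22 and 29 cell cycle genes and 16, 0, 0 and 1 ribosome biogenesis genes fell. Without the gata5 library CCNA2, mki67 and BOP1 had adjusted p-values of 0.0504, 0.0955 and 0.0804, without the tbx5 library mki67 and BOP1 had 0.0569 and 0.0605, and without the hand2 library BOP1 had 0.0543.

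Some progenitor genes fell too. In the stem and early progenitor list 12 of 29 fell and 0 rose (median -1.54). PRTG (ENSDARG00000040442), the protogenin receptor of early neural and mesodermal tissue, had 791 CPM at 24 hpf, 14.9 CPM at 48 hpf and 4.47, 8.26, 3.78 and 9.71 CPM at 72 hpf, a log2 change of -6.92 ± 0.47 (edgeR adjusted p = 0.000208), and it was also lower at 48 than at 24 hpf (adjusted p = 0.0168). LIN28A (ENSDARG00000016999), which blocks let-7 maturation, had 2.32, 2.32, 2.02 and 8.59 CPM at 72 hpf and 62.4 CPM at 24 hpf, with the hand2 library highest among the late ones. SALL4, a pluripotency factor, had 42.9, 55.2, 29.7 and 69.4 CPM at 72 hpf and 254 CPM at 24 hpf. Of the SoxB1 factors that keep neural cells undifferentiated, SOX3 changed by -2.27 ± 0.42 and sox19a by -2.45 ± 0.49. The intermediate filament gene nes of neural progenitors averaged 21.4 ± 11.3 CPM at 72 hpf and 209 CPM at 24 hpf. A separate list of radial glia and neural precursor genes moved both ways, with a median of -0.21. Of its 33 genes 10 lay above 24 hpf in all 4 late libraries and 15 below, where 29% and 25.9% of all genes tested did. In the list of signalling genes 5 of 80 fell and 0 rose. The receptors NOTCH1 (ENSDARG00000103554) and NOTCH3, which hold back differentiation of neighbouring cells, had 206, 201, 215 and 152 CPM and 390.4, 305, 327 and 201 CPM at 72 hpf, against 794 CPM and 1107 CPM at 24 hpf. The progenitor list had 12, 3, 9 and 10 calls and the signalling list 9, 0, 3 and 4 with each library left out. Without the gata5 library LIN28A, SALL4, SOX3, sox19a, NOTCH1 and NOTCH3 had adjusted p-values between 0.0517 and 0.0811. SOX3 had 0.0675 with the 12 groups.

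**Figure D3:**
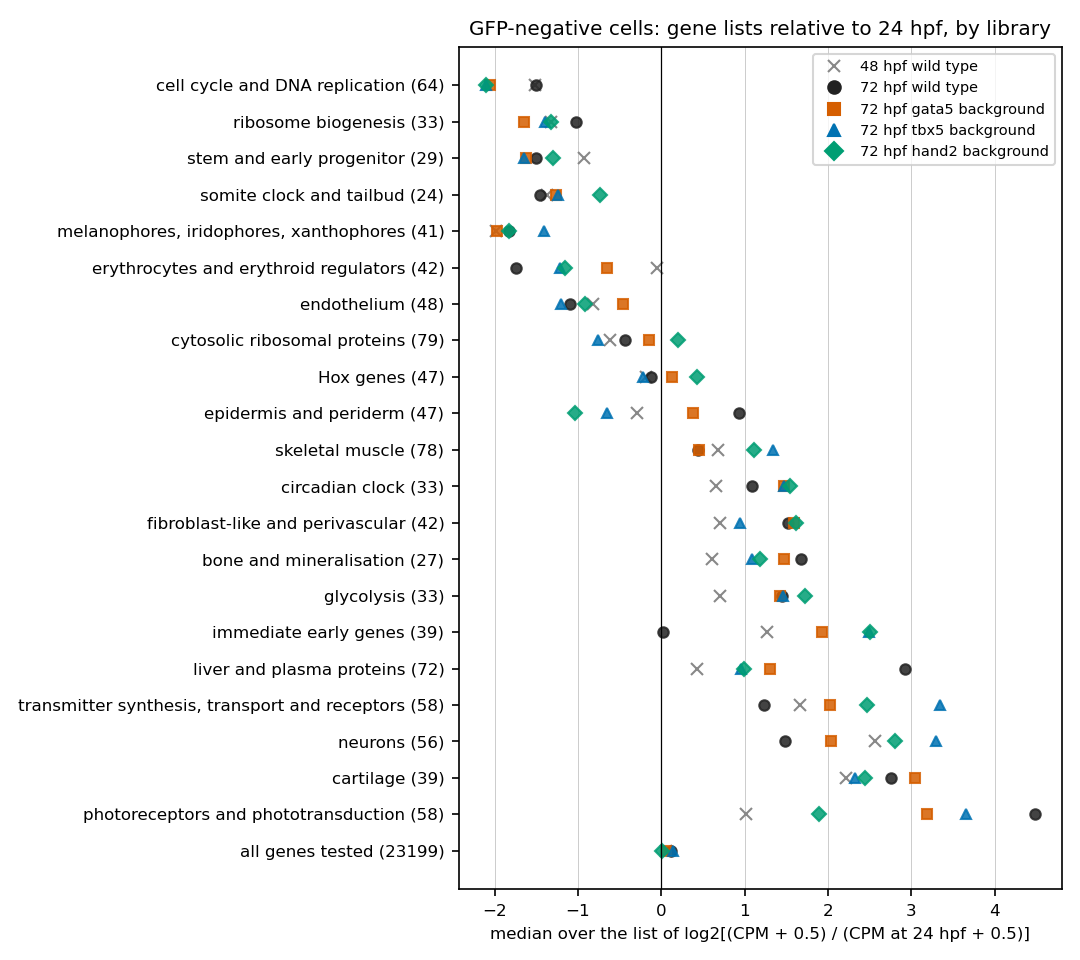
Each row is a gene list, with the number of tested genes in brackets, and each point is the median over the list of the log2 ratio of CPM plus 0.5 in 1 GFP-negative library to the 24 hpf library. Grey crosses are the 48 hpf library and filled symbols the 4 libraries at 72 hpf. The cell cycle list lies between -2.10 and -1.5 at 72 hpf and the cartilage list between 2.32 and 3.05, while all genes tested lie between 0.0119 and 0.139. The immediate early list is at 0.0234 in the wild-type library at 72 hpf and between 1.93 and 2.51 in the other 3.

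In the skeletal muscle list 7 of 78 genes rose and 1 fell, where 3.85% of all genes tested rose and 1.56% fell (median 1.03). Parvalbumin gene pvalb1, the calcium buffer of fast fibres, had 4.38 CPM at 24 hpf, 176 CPM at 48 hpf and 120.5, 153, 247 and 197 CPM at 72 hpf (log2 change 5.35 ± 0.66, edgeR adjusted p = 0.0031). The fast myosin gene myhb, one of a family of near-identical copies, was highest at 72 hpf, with 0.782 CPM at 24 hpf, 3.44 CPM at 48 hpf and 89.0, 52.5, 223 and 125 CPM at 72 hpf. The muscle creatine kinase gene ckma had 92.0, 103, 171 and 197 CPM at 72 hpf and 30.8 CPM at 24 hpf (adjusted p = 0.0485). The single gene that fell was UNC45B, the chaperone that folds myosin while fibres are built, with 20.4, 7.39, 18.9 and 16.7 CPM at 72 hpf and 72.1 CPM at 24 hpf. Without the gata5, tbx5 and hand2 library ckma had adjusted p-values of 0.0923, 0.0836 and 0.0735, and UNC45B had 0.0821, 0.0745 and 0.0781. ckma also lost its call without the 48 hpf library (0.0617). Glycolysis genes had a median of 1.65, with 7 of 33 risen and 0 fallen. In all 4 late libraries 23 lay above 24 hpf, where 29% of all genes tested did. Those that rose included isoforms typical of brain, eye or muscle. ALDOC (ENSDARG00000019702), the brain aldolase, had 164, 102, 168 and 188 CPM at 72 hpf and 22.1 CPM at 24 hpf. The dehydrogenase gene GAPDHS averaged 313 ± 58.4 CPM at 72 hpf and 50.4 CPM at 24 hpf. One pyruvate kinase ID, PKM ENSDARG00000099860, was at least 32.9-fold higher, and the lactate dehydrogenase gene LDHA averaged 111 ± 19.0 CPM at 72 hpf and 27.7 CPM at 24 hpf. GAPDHS and LDHA missed the threshold without the gata5 library (0.0512 and 0.0866), and LDHA without the tbx5 library (0.065). Calls with each library left out were 15, 4, 4 and 5 in the muscle list and 13, 3, 4 and 6 in the glycolysis list. With the 12 groups pvalb1, ckma, myhb and ALDOC were not called (edgeR adjusted p between 0.208 and 0.449).

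Circadian clock genes rose, 8 of 33 with 0 fallen (median 1.62). Of the 33, 25 lay above 24 hpf in all 4 late libraries, where 29% of all genes tested did. PER1 (ENSDARG00000056885), a repressor of the clock loop, had 0.469 CPM at 24 hpf, 5.38 CPM at 48 hpf and 33.6, 51.9, 39.2 and 38.7 CPM at 72 hpf. It had 3 counts at 24 hpf, and the ratio of summed scaled counts at 72 over 24 hpf was 86.2 (95% counting interval 29.4 to 418). The nuclear receptor gene nr1d2a, which feeds back on the clock activators, changed by 4.68 ± 0.61 (edgeR adjusted p = 0.00377). Its relative NR1D1 had 2.82 CPM at 24 hpf, 0.687 CPM at 48 hpf and 16.9, 25.7, 25.6 and 22.3 CPM at 72 hpf, so it was lowest at the middle stage. PER2, the light-induced period gene, averaged 196 ± 18.5 CPM at 72 hpf and 45.4 CPM at 24 hpf. NR1D1 was not called without the gata5, tbx5 or hand2 library (0.1, 0.0979 and 0.0805), nor PER2 without the gata5 library (0.0663), and the list had 13, 2, 4 and 6 calls in the usual order. The labels do not give the hour at which embryos were collected.

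Immediate early genes, transcription factors that cells switch on within minutes of a stimulus, including handling, were spread widely among the late libraries. In the list 4 of 39 rose and 0 fell by edgeR, and 23 rose when the wild-type library at 72 hpf was left out. EGR3 and NR4A3, a zinc finger factor and an orphan receptor induced by neuronal activity, rose, with 12.7, 11.9, 31.0 and 23.4 CPM and 15.7, 34.1, 33.9 and 21.5 CPM at 72 hpf, against 0.156 CPM and 0.313 CPM at 24 hpf. They had 1 and 2 counts at 24 hpf, so their count ratios were 149 (95% counting interval 26.7 to 5906) and 91.7 (95% counting interval 25.3 to 758). JUNB (ENSDARG00000104773) had 30.4, 200.2, 455 and 610.3 CPM at 72 hpf and 43.2 CPM at 24 hpf, and egr1 had 81.1, 266, 477 and 342 CPM at 72 hpf and 57.6 CPM at 24 hpf. In both, the wild-type library at 72 hpf lay near the 24 hpf level and the other 3 above it, and neither was called (edgeR adjusted p = 0.342 and 0.167). The same wild-type library was the lowest of the 4 in the neuron and transmitter lists. It is the only library at 72 hpf without a gata5, tbx5 or hand2 background. The parts of background and of sample handling in any of these differences were not tested. PER1, EGR3 and NR4A3 lost their calls with the 12 groups (edgeR adjusted p between 0.0988 and 0.616).

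Genes of haem synthesis and of the erythroid programme fell. In the erythrocyte list 11 of 42 fell and 0 rose (median -1.07), and those that fell included enzymes of haem synthesis and erythroid regulators. UROD, a haem pathway enzyme, had 255 CPM at 24 hpf, 31.6 CPM at 48 hpf and 16.5, 13.3, 6.39 and 8.09 CPM at 72 hpf, a log2 change of -4.53 ± 0.47 (edgeR adjusted p = 0.00205). CPOX, of the same pathway, changed by -4.33 ± 0.49. The erythroid master regulator gata1a averaged 3.45 ± 1.99 CPM at 72 hpf and 42.7 CPM at 24 hpf, and blf, a zinc finger gene of early zebrafish blood, averaged 4.29 ± 1.96 CPM and had 109 CPM at 24 hpf. Of the globin genes named here neither was called. The alpha globin gene hbae1.1, which shares reads with near-identical neighbours, had 735 CPM at 24 hpf, 3033 CPM at 48 hpf and 222, 663, 636 and 1339 CPM at 72 hpf, highest at 48 hpf and with the wild-type library lowest at 72 hpf (adjusted p = 0.986). The globin HBE1 (ENSDARG00000045143) had 43.8 CPM at 24 hpf, 253 CPM at 48 hpf and 98.6, 337, 250.2 and 125 CPM at 72 hpf, above 24 hpf in all 4 late libraries but not called (adjusted p = 0.109). Summed over the list, these genes had 8458 CPM at 24 hpf, 24200.0 CPM at 48 hpf and 2652, 7326, 6501 and 7893 CPM at 72 hpf.

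In the endothelial list 5 of 48 fell and 1 rose (median -0.73), where 1.56% of all genes tested fell and 3.85% rose. stab2, a scavenger receptor of veins, had 8.61, 36.1, 10.8 and 32.6 CPM at 72 hpf and 304 CPM at 24 hpf. CLDN5 (ENSDARG00000043716), a tight junction protein of vessels, had 25.6, 13.6, 20.7 and 13.8 CPM at 72 hpf and 109 CPM at 24 hpf. The gene that rose was klf2a, a factor induced by blood flow, with 4.54 CPM at 24 hpf, 32.5 CPM at 48 hpf and 93, 57.5, 48.0 and 67.3 CPM at 72 hpf (log2 change 3.87 ± 0.65, edgeR adjusted p = 0.0108). Of 45 leukocyte genes 1 rose and 1 fell, both near the shares of all genes tested. The neutrophil protease gene npsn rose, with 23.0, 61.3, 40.7 and 51.5 CPM at 72 hpf and 2.97 CPM at 24 hpf. The apolipoprotein gene apoc1 fell, with 4.47, 0.29, 2.82 and 3.24 CPM at 72 hpf and 33.0 CPM at 24 hpf. The erythrocyte list had 14, 7, 9 and 11 falls and the endothelial list 7, 2, 4 and 4 with each library left out. Without the gata5 library gata1a, CLDN5 and npsn had adjusted p-values of 0.0512, 0.0535 and 0.0615. In the 12-group fit gata1a, blf, stab2, CLDN5 and npsn lost theirs (edgeR adjusted p between 0.053 and 0.416).

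Part of the pigment cell genes fell in the GFP-negative cells. Of 41 tested genes of melanophores, iridophores and xanthophores, the neural crest cells that colour the fish, 10 fell and 0 rose (median -1.82). In all 4 late libraries 28 lay below 24 hpf and 4 above, where 25.9% and 29% of all genes tested did. Those above were ltk, csf1ra, SOX5 and the IMPDH1 ID ENSDARG00000042336, and none was called. Another IMPDH1 ID, ENSDARG00000029524, fell. TYR, the tyrosinase that makes melanin, had 93.3 CPM at 24 hpf, 2.52 CPM at 48 hpf and 5.13, 5.36, 10.6 and 14.3 CPM at 72 hpf (log2 change -3.39 ± 0.57, edgeR adjusted p = 0.0108). The xanthophore genes aox5 and gch2, the second an enzyme of pteridine synthesis, changed by -4.07 ± 0.55 and -3.65 ± 0.66. crestin, a marker of migrating neural crest in zebrafish, averaged 12.2 ± 5.61 CPM at 72 hpf and 147 CPM at 24 hpf. The endothelin receptor gene ednrab of crest and arch cells had no count in any of the 4 late libraries and 51.2 CPM at 24 hpf, at least 678-fold lower at 72 hpf with 3 counts over the group as the floor. These 5 genes passed without any single library, although crestin did not with the 12 groups (edgeR adjusted p = 0.06), and the list had 12, 6, 8 and 8 calls in turn. In GFP-positive cells TYR averaged 346 CPM at 72 hpf and 16.7 CPM at 24 hpf, and gch2 averaged 10410.0 CPM at 72 hpf and 120.1 CPM at 24 hpf. In GFP-negative cells gch2 averaged 8.95 CPM at 72 hpf and had 113 CPM at 24 hpf. The receptor gene ednrab is not in the pigment list. In the list of cranial crest and pharyngeal arch genes the median was 0.80. There 15 of 33 genes lay above 24 hpf in all 4 late libraries and 4 below, where 29% and 25.9% of all genes tested did. The part of sorting in the fall of pigment genes was not tested.

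In the liver and plasma protein list 2 of 72 genes rose and 0 fell, where 3.85% of all genes tested rose. apoa1b and apoa2, apolipoproteins made by liver and yolk layer, had 139, 56.4, 25.8 and 37.95 CPM and 56.6, 27.8, 14.3 and 37.7 CPM at 72 hpf, against 2.19 CPM and 1.25 CPM at 24 hpf. RBP4, the retinol carrier, had 401, 172, 105 and 74.9 CPM at 72 hpf and 7.51 CPM at 24 hpf but missed the threshold (edgeR adjusted p = 0.0541). In all 3 the wild-type library was the highest at 72 hpf. RBPJL, a factor of pancreatic acinar cells, rose, with 16.1, 9.42, 6.13 and 9.21 CPM at 72 hpf, against 2 counts at 24 hpf, a count ratio of 28.2 (95% counting interval 7.75 to 234), while the trypsin gene prss1 had 16.9, 8.99, 2.82 and 6.10 CPM at 72 hpf and was not called (adjusted p = 0.0984). Without the gata5 library apoa1b, apoa2 and RBPJL had adjusted p-values of 0.104, 0.0677 and 0.0901, without the tbx5 library RBPJL had 0.0672, and without the hand2 library apoa1b and RBPJL had 0.0572 and 0.0734. With the 12 groups apoa1b, apoa2 and RBPJL lost their calls, as did the periderm keratin gene cyt1l (edgeR adjusted p between 0.146 and 0.714). In the intestine list 3 of 39 rose and 0 fell, and with each library at 72 hpf left out in turn 4, 0, 1 and 2 rose. ANPEP (ENSDARG00000036809), a brush border peptidase, had 80.8, 44.5, 48.2 and 47.7 CPM at 72 hpf and 7.98 CPM at 24 hpf. The IDs ENSDARG00000103878 and ENSDARG00000097285 of the same symbol averaged 1.74 and 0.99 CPM at 72 hpf and were not called. ADA and MELTF were the other genes that rose. In the endocrine pancreas and gut hormone list 2 of 20 rose and 0 fell (4, 0, 0 and 2 in the same order), namely SCG3 and NEUROD1, both of which neurons also express.

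Of 47 epidermal and periderm genes 3 rose and 1 fell (median 0.08), where 3.85% of all genes tested rose and 1.56% fell. krt94, a keratin, rose with 34.3, 40.7, 28.0 and 32.1 CPM at 72 hpf, against 1.72 CPM at 24 hpf. The periderm keratin gene cyt1l fell, with 518, 457, 306 and 343 CPM at 72 hpf and 1362 CPM at 24 hpf (adjusted p = 0.0784 without the gata5 and 0.0514 without the tbx5 library). The abundant krt4 had 2853, 1523, 813 and 946 CPM at 72 hpf and 3018 CPM at 24 hpf, the wild-type library close to the earlier level, and was not called (edgeR adjusted p = 0.393). The hatching gland is a transient organ whose proteases free the embryo from its envelope, and 2 of its 8 tested genes fell. The hatching enzyme gene he1.2 had 20.7 CPM at 24 hpf, 2.86 CPM at 48 hpf and 0.165, 0, 0.533 and 0 CPM at 72 hpf. The cathepsin gene ctslb had 40.1 CPM at 24 hpf and 2.63 CPM at 48 hpf, and its only 3 counts at 72 hpf were in the tbx5 library. he1.2 missed the threshold without the gata5 library (0.0502).

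Several lists gave no call. None of 47 Hox genes, which set position along the body axis, was called by edgeR (3 had an unadjusted p under 0.05 and DESeq2 called 3), and their median was 0.00502 and changed sign with the scaling. None of 24 somite clock and tailbud genes was called (6 at unadjusted p under 0.05, 1 by DESeq2), although the median was -1.56. Of the 24, 17 lay below 24 hpf in all 4 late libraries, where 25.9% of all genes tested did. None of 41 heat shock genes was called (4 at unadjusted p under 0.05, 5 by DESeq2) and none of 33 innate immune genes (7 and 2).

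The 48 hpf library showed how far genes had moved by the middle stage. Between 24 and 48 hpf 126 genes rose (0.543%) and 8 fell (0.0345%) by edgeR. Between 48 and 72 hpf 0 of 23199 genes passed in either direction, with 976 at an unadjusted p under 0.05 and 146 called by DESeq2. Of the 893 genes that rose by 72 hpf, 415 had their 48 hpf value within the range of the 4 late libraries. For 417 it lay between 24 hpf and that range, for 57 past the range, and for 4 at or below the 24 hpf value. Of the 361 that fell, 222 were between, 134 within the range and 5 past it. Over all genes on 1 side of 24 hpf, the 48 hpf value lay within the range for 53.9% of those above and 53.5% of those below. It lay between for 26.2% and 28.6%. The late range spans 4 backgrounds, whereas the 48 hpf library is wild type. Of the 39 cartilage genes 7 had risen by 48 hpf, and of the 58 photoreceptor genes 5. MATN1, crx and PRTG passed at 48 against 24 hpf, whereas mbpa, opn1lw1 and acta2 did not; whether they differ in timing was not tested.

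Some genes set the 48 hpf library apart. At least 4-fold from all 5 other libraries, and with at least 10 CPM in the higher, lay 2 genes above and 11 below among those with a proper symbol. CYP1B1, a cytochrome that also answers dioxin-type ligands, had 2.504 CPM at 24 hpf, 26.1 CPM at 48 hpf and 5.96, 4.35, 4.103 and 2.36 CPM at 72 hpf. The clock-linked repressor BHLHE41 had 8.14 CPM at 24 hpf, no count at 48 hpf and 3.97, 11.4, 7.14 and 11.2 CPM at 72 hpf. EGR2, an immediate early gene and hindbrain and crest factor, had 9.23 CPM at 24 hpf, no count at 48 hpf and 9.60, 15.07, 10.9 and 7.09 CPM at 72 hpf (edgeR adjusted p = 0.048 for 48 against 24 hpf). With a single library at 48 hpf there is no repeat of these values.

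The same interval was read in GFP-positive cells for comparison, with 2 libraries at 24 hpf and 8 at 72 hpf, in 1 fit of all 18 libraries as 12 groups. The difference between the stage effects in GFP-negative and GFP-positive cells passed for 171 of 26357 genes as higher in GFP-negative cells (0.649%) and for 760 as lower (2.88%). Of the 43 lists, pigment cells gave the widest gap between medians, with 26 of 41 genes called as lower in GFP-negative cells and 0 as higher, and a median log2 ratio of -1.73 in GFP-negative and 3.07 in GFP-positive cells. Skeletal muscle had 21 of 78 genes called as lower and 0 as higher, with medians of 1.0 in GFP-negative and 3.46 in GFP-positive cells. In blood 14 of 42 erythrocyte genes were called as higher and 0 as lower, with medians of -1.06 in GFP-negative and -4.56 in GFP-positive cells. In the endothelial list 6 of 48 were called as higher (medians -0.716 and -2.79). The fibroblast-like list had 9 called as higher and 1 as lower, and acta2 averaged 81.7 CPM at 72 hpf and 0 CPM at 24 hpf in GFP-negative cells and 26.5 CPM at 72 hpf and 3.101 CPM at 24 hpf in GFP-positive cells. Cartilage, with 1 gene each way of 39, and the cell cycle, with 1 of 64 as higher, had medians of 2.88 and -1.91 in GFP-negative and 2.4 and -2.13 in GFP-positive cells.

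**Figure D4:**
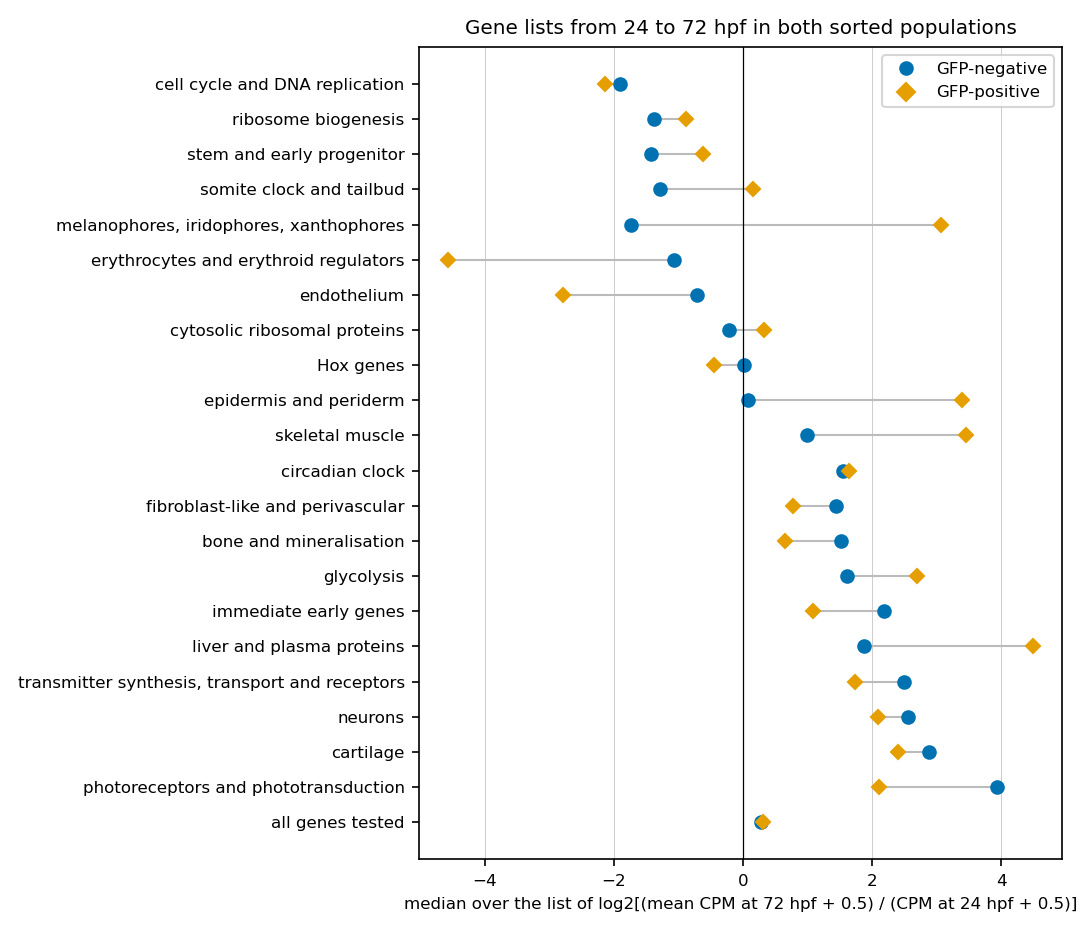
Each row is a gene list, and the points are the median over its genes of the log2 ratio of mean CPM plus 0.5 at 72 hpf to that at 24 hpf, blue circles for GFP-negative cells (4 libraries over 1) and orange diamonds for GFP-positive cells (8 over 2). Pigment cell genes lie at -1.73 and 3.07 and erythrocyte genes at -1.06 and -4.56, while all genes tested lie at 0.286 and 0.306.

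Single genes had the following levels. hbae1.1 averaged 715 CPM at 72 hpf and 735 CPM at 24 hpf in GFP-negative cells and 77.5 CPM at 72 hpf and 3805 CPM at 24 hpf in GFP-positive cells (difference of log2 changes 5.50 ± 0.55, edgeR adjusted p = 1.88e-06). aox5 averaged 4.47 CPM at 72 hpf and 74.6 CPM at 24 hpf in GFP-negative cells and 3196 CPM at 72 hpf and 54.0 CPM at 24 hpf in GFP-positive cells (-9.98 ± 0.91, adjusted p = 0.000364). ASTN1, a guide for migrating neurons, averaged 57.9 CPM at 72 hpf and 0 CPM at 24 hpf in GFP-negative cells and 5.32 CPM at 72 hpf and 5.87 CPM at 24 hpf in GFP-positive cells (12.32 ± 2.04, adjusted p = 0.000714), a fitted value that depends on the prior count because 1 group had no count. At 24 hpf UROD and stab2 were higher in the GFP-positive libraries, whose means were 1065 and 1482 CPM, than in the GFP-negative library, and the part of sorting in these differences was not tested.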

How the data were processed

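RNA of sorted cells was made into libraries with a low-input kit, per the labels' protocols. The submitters' processing notes name Trimmomatic 0.36, STAR 2.5, SAMtools 1.4, DESeq2 and the zebrafish build GRCz10; which program counted the reads, and whether it used strand, is not given there. The authors deposited raw counts per gene, used for the tests, and regularized log2 values of the same libraries, used as an alternative. All 18 count columns were matched to samples by name, and 24555 of 28298 gene IDs had a symbol. Many symbols are shared by several IDs (3559 IDs), for which the ID is printed, and reads of near-identical copies may be split between them.

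The 6 GFP-negative libraries were fitted as 3 stages with edgeR 4.0.16 (R 4.3.3, limma 3.58.1), using TMM scaling, a filter at a minimum count of 10 and total of 15, robust quasi-likelihood tests with 3 residual degrees of freedom, two-sided, and Benjamini-Hochberg adjustment over all genes tested. The difference from GFP-positive cells came from all 18 libraries as 12 groups, with 6 residual degrees of freedom. All 6 come from pairs of GFP-positive libraries, because each GFP-negative group holds 1 library there. The p-values of that fit therefore measure no spread between GFP-negative libraries. Ratios used CPM plus 0.5. A fold for a gene without a count used 3 counts over the group as the floor, and 95% intervals of count ratios cover counting error only. Library totals ran between 5705157 and 18863332. The fit was tested on simulated data: of 200 genes changed, 15 were called in 72 against 24 hpf and 0 falsely, with 0 of the 4-fold, 6 of the 8-fold and 9 of the 16-fold changes among them. All genes were given the same spread there. For the difference from GFP-positive cells 0 genes were called in such data.

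The libraries, the 43 gene lists and the tests were chosen with earlier results of these data known. Named genes are part of those given by a rule: the 15 largest called changes each way, the 4 most abundant and 4 most changed called members of each list, the largest departures at 48 hpf, the 5 largest differences from GFP-positive cells, and the 3 background genes. Alternatives were other scaling, filters, DESeq2 1.42.0, other groupings, the deposited log2 values and leaving out each library. Some genes given by that rule are not reported here.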

Additional observations from a re-analysis of the deposited data

Results flagged for a closer look

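Among 93 genes examined one by one and 43 gene lists, some had a single library at 72 hpf that stood apart from the other 3. The rule was Dixon's criterion for groups of 4, which chance alone meets in about 1 in 20 groups. It was met by 4 genes and 4 lists. HAND2 had 0 CPM in the hand2 library. LIN28A had 8.59 CPM in that library, the highest of the 4. POSTN (ENSDARG00000043806) had 229 CPM in the wild-type library, and ctslb had 0.16 CPM in the tbx5 library, the other 3 holding no count. That ctslb value is 3 counts in the deepest library, which had 18863332 counts in total, so depth may account for it. Of the list medians of the log2 ratio to 24 hpf, the cell cycle list had -1.5 and the circadian list 1.09 in the wild-type library, the glycolysis list 1.73 in the hand2 library, and the fibroblast-like list 0.942 in the tbx5 library.

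For 20 of the 93 genes the log2 change between 24 and 72 hpf differed between GFP-negative and GFP-positive cells (edgeR interaction test, adjusted p under 0.05). Of all 26357 genes tested, 0.649% passed as higher and 2.88% as lower. The 93 were named by rules that favour large or called changes, so their share is not comparable with that of all genes. ASTN1, named for the size of its difference, is not among the 93. The values are the change in GFP-negative cells minus that in GFP-positive cells, and where a group had no count the value depends on the prior count. The change was higher in GFP-negative cells for acta2 (9.92), COL6A3 (3.68), slc4a10a (10.87), syt5b (10.29), HBE1 (4.59), hbae1.1 (5.50), klf2a (3.15) and npsn (8.36). It was lower for the neural factors SOX3 (-4.04) and sox19a (-3.09), the retinal factors VSX1 (-7.11) and POU4F2 (-6.89), and the synaptic genes vamp2 (-7.00) and sypb (-4.12). It was also lower for both SLC1A3 IDs (-8.27 for ENSDARG00000043148 and -3.56 for ENSDARG00000104431), for the pigment genes aox5 (-9.98), TYR (-7.89) and gch2 (-10.37), and for the hatching enzyme gene he1.2 (-10.68).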

How the results depend on the processing

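The count of genes called between 24 and 72 hpf depended on which libraries set the spread. Against 893 higher and 361 lower, DESeq2 called 2657 and 649, all 18 libraries as 12 groups gave 421 and 527 (44.4% higher, against 71.2%), and the wild-type library alone at 72 hpf gave 156 and 38. Leaving out 1 library at a time gave 210 to 2135 higher and 67 to 709 lower. Of the 1254 calls, 271 were shared with the 277 made without the gata5 library and 1253 with the 2844 made without the wild-type library at 72 hpf. Between 24 and 48 hpf, without a filter 417 were higher and 23 lower, DESeq2 gave 836 and 117, and the 12 groups 33 lower. Between 48 and 72 hpf, 4 higher and 5 lower were called without a filter, 127 and 19 by DESeq2, 4 and 13 with the 12 groups, and 0 whichever library at 72 hpf was left out. The difference from GFP-positive cells gave 258 higher and 446 lower with library totals, 318 higher without a filter, and 534 and 1173 by DESeq2. Genes at least 4-fold away in all 4 libraries numbered 1288 above and 186 below, and the deposited log2 values gave 1907 and 521 at 2-fold. Leaving out 1 library gave 7206 to 7850 genes above, 6449 to 7057 below, and 3373 to 4178 and 1498 to 1920 at 2-fold. Of 79 called genes examined, 34 were not called with the 12 groups (adjusted p up to 0.714) and 57 with the wild type alone (up to 1). Of 93 genes examined, 4 changed sign, none of them called. JUNB was at -0.543 with the wild type alone. hbae1.1 was at 0.0206 with library totals. With 1 library at 72 hpf left out it ranged between -0.535 without the hand2 and 0.259 without the wild-type library. It was at 0.013 without the tbx5 library, and its lowest value over all alternatives was -1.76. HAND2 was at -1.28 with the 12 groups. GATA5 ranged between -0.964 without the gata5 and 0.231 without the hand2 library. It was at 0.0614 with library totals and 0.129 without the tbx5 library. The cause was not tested. No paired analysis was possible because, within the stage comparisons, each GFP-negative group has a single library, numbered 1. With the replicate number as a block in the 12 groups, a fit chosen after seeing the data, 142 genes were higher and 637 lower in the difference from GFP-positive cells, against 171 and 760, and 764 of these 779 were among the 931. The deviations of the 6 GFP-positive pairs correlated between -0.0515 and 0.0409. These pairs hold no GFP-negative library. Whether GFP-negative and GFP-positive libraries of the same number shared a sort or an embryo pool was therefore not tested. With 1 library at 24 and at 48 hpf, simulated data were made in which all genes were given the same spread. No change of 4-fold or less was recovered there, and none of any size between 24 and 48 hpf. The deposited counts did give such calls, among them igf2bp1 (log2 change -1.54 at 72 over 24 hpf, edgeR adjusted p = 0.0482). Between 24 and 48 hpf 126 genes rose and 8 fell in them. The smallest change that can be called with spreads that differ between genes was not tested.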
